A study of Arabidopsis thaliana with 13 samples.

Results

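Of the 22746 non-control probe sets of the array, 158 were moderately higher in siliques carrying paternal excess than in siliques carrying maternal excess. They were chosen by their signals on 8 arrays: with signals under 20 raised to 20, the lowest of the 4 paternal excess arrays (2xX4x and 2xX6x) was from 1.5 to under 4 times the highest of the 4 maternal excess arrays (4xX2x and 6xX2x). Another 51 probe sets had a ratio of 4 or more. The difference between these 8 arrays is therefore a property of the choice and not a result, and the 158 probe sets are described here in the arrays that played no part in it: the balanced cross 2xX2x, the mutant cross fis1X2x, and unfertilised msi1.

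In the name of a cross the mother stands before the X and the father after it, each by its ploidy. Whole siliques were harvested 5 days after pollination, with 2 biological replicates per cross, and every sample was pooled from several plants. The balanced cross had a diploid C24 mother hemizygous for the male-sterility transgene A9-barnase and a diploid C24 father. The same kind of mother was pollinated by tetraploid C24 in 2xX4x and by hexaploid Col-1 in 2xX6x. In 4xX2x the mother was tetraploid C24 with A9-barnase, and in 6xX2x it was hexaploid Col-1 without the transgene; both were pollinated by diploid C24. In fis1X2x a Ler mother homozygous for fis1-3 (mea-3/f644) was pollinated by diploid C24, so that the mutation and the Ler background of the mother cannot be told apart. The msi1 sample was 1 array of siliques with no father, harvested 7 days after flowers opened from C24 plants labelled homozygous for msi1-2. The methods describe them as male-sterile F1 plants of homozygous msi1 and A9-barnase C24, picked for pistils that elongated unpollinated. Plants of such an F1 would be heterozygous, at odds with the label. Part of their ovules would then carry the wild-type allele. MEA and MSI1 had no named probe set of their own, so the mutant labels could not be checked. The hexaploid parent was Col-1 on both sides of the choice, so ploidy and accession cannot be told apart in 2xX6x and 6xX2x.

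In flowering plants a second fertilisation gives rise to the endosperm, the tissue that nourishes the embryo. Endosperm growth responds to the ratio of maternal to paternal genomes: paternal excess promotes its proliferation and delays its cellularisation, and maternal excess does the reverse. FIS1, also called MEDEA, and MSI1 belong to the Polycomb complex that represses transcription in the central cell and endosperm. Mothers lacking FIS1 produce overgrown endosperm, and ovules lacking MSI1 can begin endosperm development without fertilisation.

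Values are signals in arbitrary units, scaled by the submitters to one trimmed mean on all 13 arrays. The median signal was 38.0 to 46.4 per array. The actin 3′ to 5′ signal ratio, a sign of RNA integrity, was 21.4 in 6xX2x replicate 1 and 0.874 to 5.98 on the other 12 arrays. Without that array 191 probe sets met the rule, among them 153 of the 158. Silique wall, seed coat, embryo and endosperm all gave RNA, so fewer cells of a type and less RNA per cell cannot be told apart. The 7 photosynthetic genes taken as markers of the green silique wall summed to 14720 and 15280 on the 2xX2x arrays, to 18740 and 22810 on the fis1X2x arrays and to 23350 in msi1; 6 of the 7 were higher in fis1X2x without overlap and none was called. The 3 endosperm markers (AGL62, IKU1, IKU2) summed to 112.1 and 114.4, to 132.5 and 147.4, and to 192.2. In fis1X2x only AGL62 had a higher mean than in 2xX2x (48.9 against 6.65). IKU1 averaged 86.0 against 98.65, and IKU2 5.05 against 7.95. In msi1 all 3 were above their 2xX2x means. The 3 seed coat markers summed to 1755 to 3066, 2211 to 3110 and 1824, and the 4 pollen markers to 140.4 to 205.9, 123.3 to 158.6 and 85.6. These markers were matched by symbol, and few genes carried the sums. In 2xX2x the seed coat markers DFR and BAN averaged 1231 and 1176, and CHI 3.6. Of the pollen markers AGL18 averaged 148.3 there, and MGH3, AGL104 and AGL66 at most 10.15. OLEO3, an oleosin and the only seed storage marker measured, averaged 177.6, 42.3 and 3.80 in the same groups, and no embryo marker could be matched. None of these markers was among the 158, and the part of tissue composition in the results that follow was not tested.

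The median signal of the 158 probe sets was 117.5 and 117.2 on the 2xX4x arrays, 113.2 and 82.9 on the 2xX6x arrays, 12.4 and 18.0 on the 4xX2x arrays, and 22.1 and 18.3 on the 6xX2x arrays. In 55 of them all 4 maternal excess arrays lay at or under the floor of 20, so the ratio of these is set by the floor and by the paternal side alone. The median ratio was 2.00. Platform annotation gave 1 gene for 94 of the probe sets, several for 11 and none for 53. Only genes of the first kind are named.

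Just inside the lower limit was AT5G37520, with a ratio of 1.51. Its lowest paternal excess signal was 30.2, and its maternal excess signals were all under the floor. Just outside it lay AT1G10110 with 1.498 (40.6 against 27.1) and SPP with 1.491 (647.6 against 434.4). At the upper limit, AT5G05030 lay inside with 3.77 (82.1 against 21.8), and the nearest named probe set outside was SWEET8 with 4.05 (181.8 against 44.9).

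The 10 named genes with the largest ratios, from 2.94 to 3.77, were led by AT5G05030, which encodes an expressed protein of unknown function. Then came GSTU15, a glutathione S-transferase (3.71), the defensin-like gene AT5G40155 (3.65) and AT5G40040, which encodes a 60S acidic ribosomal protein P2 (3.62). AT5G58660, of the 2OG-Fe(II) oxygenase family, had 3.17 and AT1G67820, a protein phosphatase 2C, had 2.95.

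**Figure D1:**
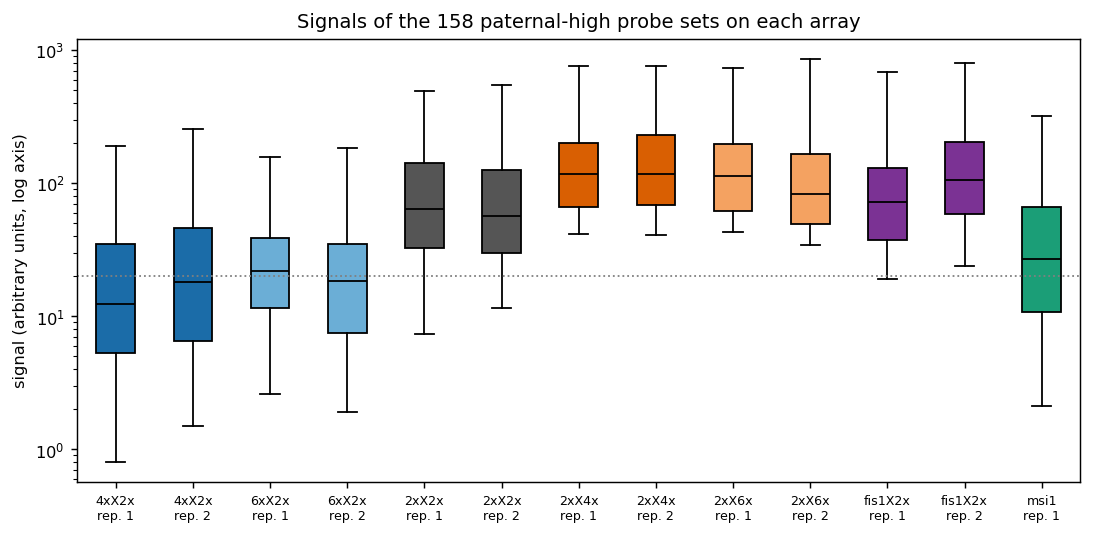
Signals of the 158 probe sets on each of the 13 arrays, on a log axis in arbitrary units; boxes span the quartiles, the line is the median, whiskers run from the 5th to the 95th percentile, and the dotted line is the floor of 20 used in the choice. The 8 arrays of 4xX2x, 6xX2x, 2xX4x and 2xX6x chose the probe sets; among the others the medians were 64.2 and 57.0 in 2xX2x, 72.8 and 105.8 in fis1X2x, and 26.9 in msi1.

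In the balanced cross 42 of the 158 had both arrays strictly between the groups that had chosen them. Another 40 had both at or above the lowest paternal excess array, and 9 had both at or below the highest maternal excess array. The same held, in this order, for 0.615%, 64.6% and 66.0% of all probe sets. Both 2xX2x arrays were above all 4 maternal excess arrays for 116 of the 158, against 8.82% of all probe sets. Both were below all 4 paternal excess arrays for 76, against 6.19% of all. Because the choice used the arrays on either side, these counts describe where 2xX2x fell and carry no test. On a scale where the maternal excess mean is 0 and the paternal excess mean is 1 (log2 signals, raised to 20), the median position of 2xX2x was 0.60, with quartiles of 0.31 and 0.87.

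The members nearest the paternal side reached the signals of 1 or both paternal excess crosses in the balanced cross. AT2G44250 gave 236.4 and 171.6 in 2xX2x, 109.2 and 178.5 in 2xX4x, 44.1 and 36.0 in 2xX6x, and at most 14.1 in maternal excess. Its neighbour on chromosome 2, AT2G44240, with no locus between them, gave 139.5 and 168.7 in 2xX2x, 127.7 and 193.9 in 2xX4x, and 99.3 and 74.9 in 2xX6x. AT1G19320 gave 521.8 and 609.4 in 2xX2x and 569.6 and 971.6 in 2xX4x, while its 2xX6x arrays read 233.2 and 189.3 and its maternal excess arrays 34.1 to 68.5. In all 3 genes 2xX2x was above maternal excess and above 2xX6x without overlap.

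At the other end were genes at maternal excess levels in 2xX2x. AT5G07850 read 3.6 and 4.0 in 2xX2x and 1.0 to 5.3 in maternal excess, against 38.3 to 95.1 in paternal excess. AT2G43670, which encodes a glycosyl hydrolase family 17 protein, read 12.7 and 12.8 in 2xX2x, 8.6 to 23.6 in maternal excess, and 57.6 to 176.1 in paternal excess. AT2G20170, annotated as a hypothetical protein, read 2.5 and 17.4 in 2xX2x, and its paternal excess arrays read 56.9 to 192.1. In each of these genes all 4 paternal excess arrays were above both 2xX2x arrays.

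Position differed between the remaining groups. The median was 0.85 in fis1X2x. Both fis1X2x arrays were at or above the lowest paternal excess array for 71 of the 158. That was 44.9%, against 55.2% of all probe sets. The median was 0.0061 in msi1, whose array was at or below the highest maternal excess array for 90 (57.0%, against 78.8% of all probe sets) and under the floor of 20 for 62 (39.2%, against 35.4% of all). The choice set the paternal and maternal excess ranges apart in the 158 but not in all probe sets. The shares at or beyond these ranges are therefore not alike and carry no test.

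**Figure D2:**
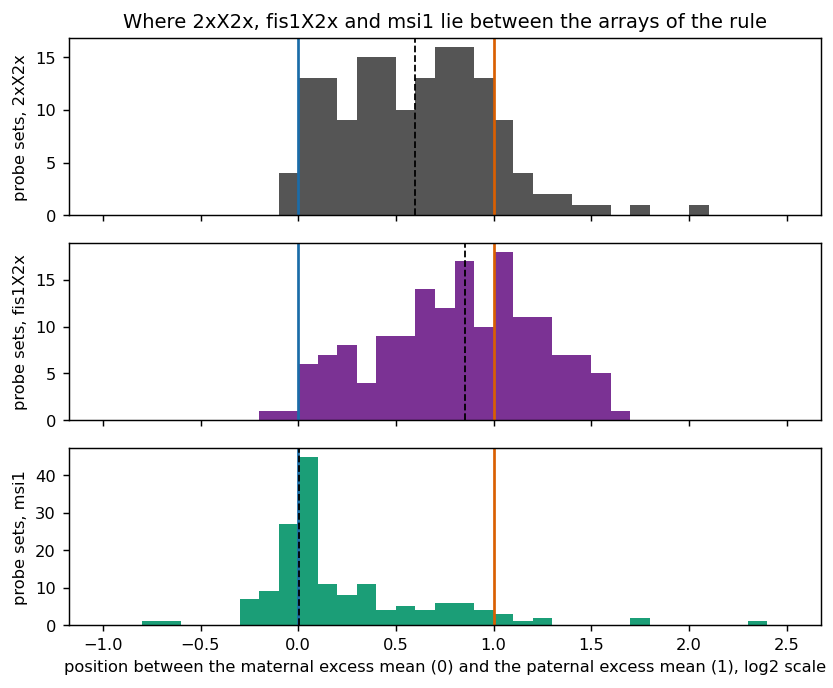
Number of the 158 probe sets at each position between the mean of the 4 maternal excess arrays (0, blue line) and that of the 4 paternal excess arrays (1, orange line), for the means of 2xX2x and fis1X2x and for the msi1 array, on log2 signals raised to 20; dashed lines are medians. The medians were 0.60 in 2xX2x, 0.85 in fis1X2x and 0.0061 in msi1; signals under 20 in both msi1 and maternal excess collect at 0.

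The crosses with a hexaploid parent did not lie uniformly beyond those with a tetraploid parent. Both 2xX6x arrays were above both 2xX4x arrays for 37 of the 158 (23.4%) and below them for 69 (43.7%). All probe sets gave 16.3% and 15.0%. Both 6xX2x arrays were below both 4xX2x arrays for 26 (16.5%) and above them for 48 (30.4%). All probe sets gave 18.6% and 27.0%, near the shares of the 158. These are the arrays of the choice and the hexaploid parent was of another accession, so the counts are a description. AT5G24316, of a proline-rich family, was among those above: its signals were 82.7 and 113.5 in 2xX4x and 639.3 and 624.4 in 2xX6x. AT5G37520 was among those below, with 238.1 and 362.6 in 2xX4x and 50.8 and 30.2 in 2xX6x.

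The cross fis1X2x asks how probe sets higher in paternal than maternal excess behave when the genome ratio is balanced but the mother lacks FIS1. Neither fis1X2x nor 2xX2x had been used in the choice. Both fis1X2x arrays were above both 2xX2x arrays for 68 of the 158 probe sets (43.0%), against 14.9% of all probe sets. Both were below for 34 (21.5%), against 22.5% of all. The median difference was 0.42 on the log2(signal + 7.4) scale, where the median of all probe sets was -0.06. The median was 0.14 for fis1X2x replicate 1 and 0.71 for replicate 2. Without replicate 2 the count above 2xX2x was 72 and that below was 58. With an array left out such counts can only stay level or rise. The shares of all probe sets rise in the same way and were not computed for that setting, so 14.9% and 22.5% do not apply to it. Among the 51 probe sets with a ratio of 4 or more, 34 were above and 5 below, with a median of 1.47; whether they differ from the 158 was not tested.

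A linear model (limma, with Benjamini-Hochberg adjustment over 14244 probe sets) was fitted to these 4 arrays alone, since the spread of the other 8 is narrowed for chosen probe sets. Of the 158, 6 failed the filter on dim signals. Called higher at an adjusted p under 0.05 were 17 of the 152 tested, against 0.505% of all tested; called lower were 4, against 0.421%. Of the 17 called higher, 8 had passed the filter through the fis1X2x arrays alone, and the filter thereby favours a difference in them. With no filter 7 of the 158 were called higher and 1 lower, against 0.176% and 0.123% of all 22746. A fit to the 12 arrays of the 6 crosses takes its spread largely from the arrays of the choice and is given as a description only: it called 23 higher and 8 lower, against 0.897% and 1.29%. With either fis1X2x replicate left out no probe set of the whole array was called; the lone array is then assumed to vary like the 2xX2x pair. At an unadjusted p under 0.05 in limma, 36 of 132 members tested were higher and 16 lower without replicate 1, against 2.66% and 6.5% of all tested. Without replicate 2 they were 19 and 25 of 130, against 2.25% and 4.64%. The replicates came from pools of different plants, and p-values measure the spread between these pools. Of the 21 calls, 9 higher and 2 lower were of named genes.

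**Figure D3:**
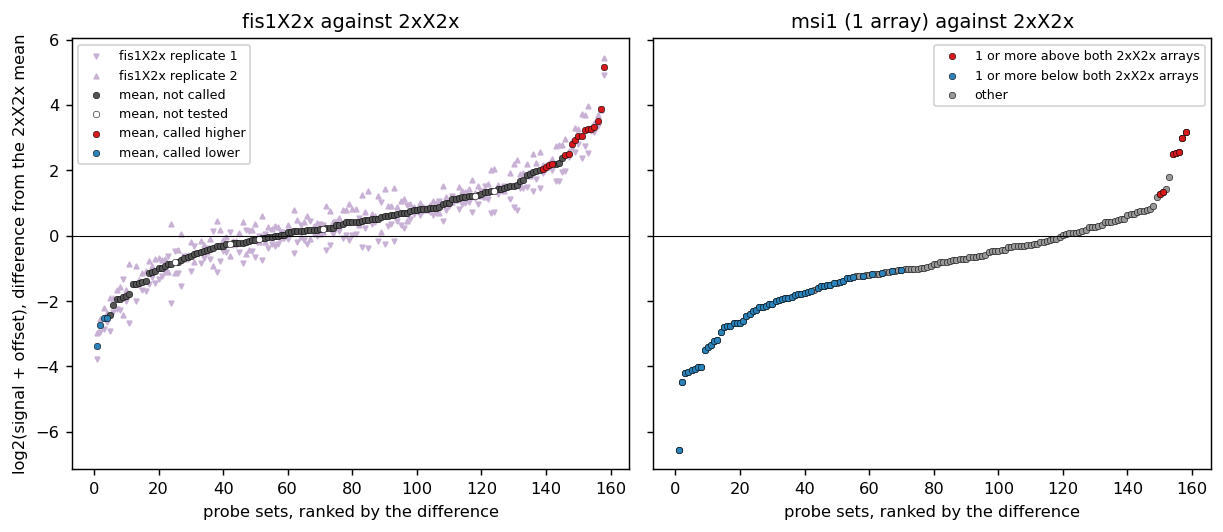
Difference of each of the 158 probe sets from the 2xX2x mean, on the log2(signal + 7.4) scale, ranked separately in each panel. Left, means of fis1X2x (circles, coloured where called by limma at an adjusted p under 0.05, white where not tested) with both replicates as triangles; right, the msi1 array, coloured where at least 1 beyond both 2xX2x arrays (7 above, 58 below).

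AT5G26630, a gene of the MADS-box transcription factors known as AGL35, was dim in 2xX2x. It read 7.4 and 2.7 there and 75.1 and 151.4 in fis1X2x, with no overlap. It had passed the filter through fis1X2x alone, and with no filter its adjusted p was 0.113 by limma. Its paternal excess signals ran from 30.8 to 104.2. AGL33, another MADS-box gene among the 158, read 63.8 and 48.7 in 2xX2x and 45.2 and 65.3 in fis1X2x, so that the groups overlapped. AT4G11400, with 53.7 and 43.2 in 2xX2x, read 135.6 and 121.8 in fis1X2x; the groups did not overlap, and it was not called. No role is given for it in the sources used here.

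AT5G40040 (ribosomal protein P2), a component of the translation machinery, read 26.0 and 24.7 in 2xX2x and 125.9 and 157.9 in fis1X2x. The groups did not overlap; it too had passed the filter through fis1X2x alone, with an adjusted p of 0.0935 by limma without the filter. AT5G58830 read 19.4 and 25.1 in 2xX2x and 86.7 and 195.8 in fis1X2x, with no overlap and no call. SBT4.13, of the subtilase family of proteases, read 169.7 and 103.1 in 2xX2x and overlapped with fis1X2x (93.3 and 151.3).

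AT4G32105, a galactosyltransferase, read 28.9 and 41.5 in 2xX2x and 421.0 and 539.2 in fis1X2x (11.5-fold, log2 difference 3.52, SE 0.29, adjusted p = 0.00598 by limma). Only its 2xX6x arrays, at 623.5 and 1089.7, were higher. AT5G24316 (proline-rich) rose from 55.4 and 76.3 to 291.6 and 316.6 (4.29-fold, log2 difference 2.10, SE 0.28, adjusted p = 0.0282 by limma, 0.054 with no filter). AT2G43670 (glycosyl hydrolase family 17) read 70.9 and 132.0 in fis1X2x against 12.7 and 12.8 in 2xX2x, with no overlap and no call. GH9B17, a family 9 glycosyl hydrolase, read 20.3 and 51.2 in 2xX2x and 66.7 and 175.6 in fis1X2x; the groups did not overlap and it was not called.

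The other named genes called higher have little or no annotation. AT3G05460, annotated as related to a sporozoite surface protein, read 4.1 and 31.9 in 2xX2x and 306.6 and 297.9 in fis1X2x. The rise was 14.6-fold on the log2(signal + 7.4) scale (log2 difference 3.86, SE 0.55, adjusted p = 0.0379 by limma). The call was lost with no filter (adjusted p = 0.0995) and with no offset (0.115). AT2G23970, AT5G07850 and AT4G20800 had passed the filter through fis1X2x alone, and their adjusted p is given without it. AT2G23970 read 23.2 and 20.7 in 2xX2x and 198.2 and 275.4 in fis1X2x (adjusted p = 0.0277 by limma). AT5G07850 read 93.7 and 115.8 in fis1X2x (adjusted p = 0.0554), against 3.6 and 4.0 in 2xX2x. AT4G20800 read 10.4 and 12.1 in 2xX2x and a mean of 192.9 ± 131.4 (SD, n = 2) in fis1X2x (adjusted p = 0.126 by limma). The arrays did not overlap in any of the 3, and only AT2G23970 was called without the filter. AT1G09370 rose 4.50-fold, from 96.3 and 100.8 to 448.9 and 490.1 (adjusted p = 0.0185), and all 4 of its paternal excess arrays lay between these groups, at 225.1 to 298.5. The largest rise among the 158 on the log2(signal + 7.4) scale was of an unnamed probe set, from 48.5 and 34.2 to 1443 and 2087 (36.1-fold, adjusted p = 0.00351).

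Of the 4 probe sets called lower, 2 were named. AT2G44250 fell 6.71-fold, from 236.4 and 171.6 to 19.5 and 28.6 (log2 difference -2.75, SE 0.31, adjusted p = 0.0158 by limma). AT5G05030 fell 5.70-fold, from 164.7 and 162.3 to 19.9 and 25.5 (log2 difference -2.51, SE 0.28, adjusted p = 0.0142 by limma). With no filter their adjusted p was 0.0526 and 0.0547. In both, the fis1X2x arrays were below every 2xX4x and 2xX6x array. The remaining 10 of the 12 largest named differences in this direction had fis1X2x arrays below both 2xX2x arrays but were not called on 4 arrays. AT1G19320 read 113.5 and 174.5 in fis1X2x against 521.8 and 609.4 in 2xX2x. AT5G37520 read 4.3 and 15.8 against 59.3 and 108.2. AT3G56520, of the NAM family of developmental transcription factors, read 6.0 and 39.3 against 76.4 and 79.9. AT5G40155 (defensin-like) read 173.6 and 376.9 against 982.1 and 528.1. In 11 of the 12 genes both fis1X2x arrays lay below all 4 paternal excess arrays; the exception was AT5G40155, whose 2xX6x arrays read 403.2 and 261.7.

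**Figure D4:**
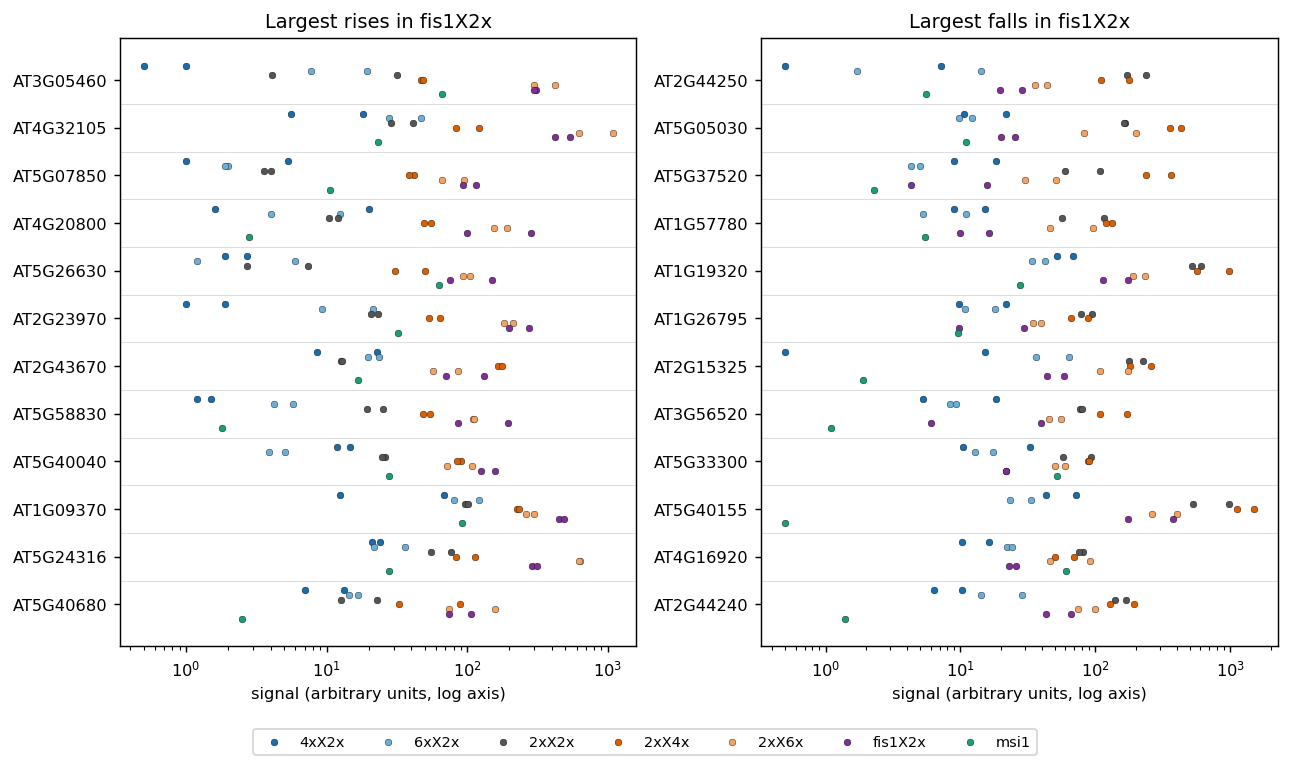
Signals on every array, on a log axis in arbitrary units, of the 12 named genes with the largest rises (left) and the 12 with the largest falls (right) in fis1X2x against 2xX2x, among those whose arrays did not overlap; each dot is 1 array and values under 0.5 are drawn at 0.5. AT3G05460 rose from 4.1 and 31.9 to 306.6 and 297.9, and AT2G44250 fell from 236.4 and 171.6 to 19.5 and 28.6; in the right panel msi1 lies below both 2xX2x arrays for all 12 genes.

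The msi1 array asks what these genes do in siliques that elongated without fertilisation. The msi1 group was 1 array and was not tested, and genes are given by size. The msi1 signal was at least 1 on the log2 scale below both 2xX2x arrays for 58 of the 158 (36.7%), against 5.30% of all probe sets. It was as far above both for 7 (4.43%), against 3.67% of all. The median difference was -0.90, where that of all probe sets was -0.04. With either 2xX2x array left out, 12 were above and 71 below, counts that could only stay level or rise. The shares of all probe sets were not computed for that setting. Among the 51 probe sets with a ratio of 4 or more, 24 were below and 4 above, with a median of -1.04.

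The 10 named genes with the largest falls in msi1 read from 0.4 to 27.6 there. AT5G40155 (defensin-like), with 982.1 and 528.1 in 2xX2x, read 0.4 in msi1. AT2G15325 read 176.2 and 227.3 in 2xX2x and 1.9 in msi1, and AT2G44240 read 139.5 and 168.7 against 1.4. AT3G03410, which encodes a calmodulin-related protein, read 143.8 and 117.4 against 0.6. For AT3G03410 the maternal excess arrays were just as low, at 0.4 to 3.7, while fis1X2x read 114.2 and 309.2. AT1G72580, a hypothetical protein, read 169.5 and 113.4 in 2xX2x against 0.7 in msi1, and 59.9 and 81.3 in fis1X2x. AT3G56520 read 1.1, AT5G37520 read 2.3, AT2G44250 read 5.6, AT5G05030 read 10.9 and AT1G19320 read 27.6. On the log2(signal + 7.4) scale these differences ran from -3.18 to -6.54.

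AT5G26630 was the only named gene past the size limit in the other direction. It read 63.3 in msi1 against 7.4 and 2.7 in 2xX2x, a difference of 2.53 on the log2 scale, and its fis1X2x signals were 75.1 and 151.4. AT3G05460 read 66.7 against 4.1 and 31.9, a mean difference of 1.80 that fell short of the limit because of the second 2xX2x array. Of the other 7 named genes called higher in fis1X2x, AT4G20800 (2.8), AT4G32105 (23.1), AT1G09370 (92.2) and AT5G24316 were below both of their 2xX2x arrays in msi1. AT5G07850 (10.5), AT2G23970 (32.2) and AT5G40040 (27.9) were above both, short of the size limit.

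Among the 10 named genes with the highest mean in the balanced cross were several with no call in fis1X2x. AT5G47350, of the palmitoyl protein thioesterase family, read 1590 and 2020 in 2xX2x, 3971 and 3854 in fis1X2x and 1912 in msi1. BGLU15, a beta glucosidase, read 725.7 and 826.9 in 2xX2x, 648.6 and 928.6 in fis1X2x and 264.2 in msi1. AT1G12330, an expressed protein of unknown function, read 384.4 and 389.8 in 2xX2x and 415.8 and 370.1 in fis1X2x, and 177.9 in msi1. AT2G02400, of the cinnamoyl-CoA reductase family of lignin synthesis, read 261.5 and 184.5, 281.0 and 351.2, and 138.5 in the same groups. In fis1X2x the arrays of AT5G47350 and AT2G02400 lay above both 2xX2x arrays, and those of BGLU15 and AT1G12330 overlapped with them.

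Hormone response genes among the 158 were RR19, RR22 and IAA31. RR19 and RR22 are response regulators of the two-component system that carries cytokinin signals. RR22 read 454.9 and 479.5 in 2xX2x, 729.0 and 991.0 in fis1X2x (log2 difference 0.85, adjusted p = 0.368 by limma) and 137.6 in msi1. RR19 read 27.7 and 52.7 in 2xX2x, 58.1 and 83.3 in fis1X2x (0.75, adjusted p = 0.606) and 5.2 in msi1. Both were above 2xX2x without overlap in fis1X2x and more than 1 on the log2 scale below it in msi1. Of the 6 cytokinin genes annotated on the array, RR19 and RR22 were the only members; 3 of the 6 passed the filter, none was called in fis1X2x, and 3 of the 6 were lower by size in msi1. IAA31, of the auxin-responsive Aux/IAA family, read 297.1 and 290.6 in 2xX2x, 685.1 and 606.0 in fis1X2x (1.11, adjusted p = 0.179) and 203.6 in msi1. Of 16 auxin genes, 7 passed the filter and none was called.

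Glycosyl hydrolases matched by symbol or synonym numbered 44, of which GH9B17 and BGLU15 were members. Of the 23 tested none was called higher and 1 lower. None of the listed genes of DNA replication (6 on the array), core histones (3), chromatin modification (17), mitosis and cytokinesis (9), gibberellin (3), expansins (19), pectin esterases (4), F-box and ubiquitin ligases (16), defensin-like symbols (13) or known imprinted genes (4) was among the 158. Outside the 158, 1 expansin, 1 imprinted gene and 1 defensin-like gene were called higher in fis1X2x, and 1 defensin-like gene lower. A list of nutrient transporters by name matched 23 genes and no member; SWI3A and CHB3, chromatin proteins, and SWEETIE are among the 23 and are no transporters. The lists of ribosomal proteins, Polycomb and brassinosteroid genes matched no symbol on the array. The lists were matched by symbol and synonym, which many loci lack, so members such as AT5G26630, AT5G40040 and AT5G40155 were not counted in them. Nor were AT2G43670 (glycosyl hydrolase family 17) and AT3G21410, which the study annotates as an F-box family protein. CDC27a, also a member, stood on no list.

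The 94 named members were spread over all 5 chromosomes, with 19, 18, 17, 12 and 28 on chromosomes 1 to 5. The share on chromosome 5 was 29.8%, where 22.4% of all single-gene probe sets with a locus lay; on chromosome 1 the shares were 20.2% and 25.7%. All but 1 were annotated as protein coding, and the exception was a pseudogene. AT2G44240 and AT2G44250 were the only pair of adjacent loci among them.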

How the data were processed

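The deposited table holds intensity values on a linear scale, which the authors computed with MAS5 and scaled to a common trimmed mean; it gives no detection calls, software version or scan batch, and depth has no counterpart on arrays. Of 22810 probe sets, 64 controls were left out. Genes came from the platform annotation and the TAIR10.1 gene table, which was used for names, chromosomes and locus order only. Roles are those of the study's annotation or the gene symbols.

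Signals were transformed as log2(signal + 7.4), the offset being their 20th percentile, so that fold changes of dim genes are understated. A probe set was fitted if at least 2 of its 4 signals exceeded their own array's 40th percentile, using limma 3.58.1 in R 4.3.3 (eBayes with trend, two-sided, Benjamini-Hochberg over all tested). The steps were tested on simulated data. Python 3.11.15 and matplotlib 3.10.9 made counts and figures.

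Named genes had a single-gene probe set and the largest ratio, fis1X2x or msi1 difference, 2xX2x signal or position, or stood on a list. The members and lists were chosen with earlier results of these data known, and the grouping by role was made after the values were seen. Alternatives were other offsets, filters, normalizations, variance models and rules, the replicate block, and leaving out each array. Promoter motifs and proteins were not analysed here. The result of 1 gene list is not reported here.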

Additional observations from a re-analysis of the deposited data

Results flagged for a closer look

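In 2 named genes the mutants lay on opposite sides of the balanced cross, every array at least 1 on the log2 scale beyond both 2xX2x arrays. AT5G58830 read 19.4 and 25.1 in 2xX2x, 86.7 and 195.8 in fis1X2x (2.23 on the log2 scale) and 1.8 in msi1 (-1.68). AT5G40680 read 22.7 and 12.6 in 2xX2x, 74.5 and 107.2 in fis1X2x (1.98) and 2.5 in msi1 (-1.31). In both genes the msi1 signal and 1 of the 2xX2x signals lay under the floor used in the choice. With signals raised to that floor, msi1 would equal the lower 2xX2x array in both. The msi1 side of this result is therefore a difference among dim signals. The difference between the mutants was not tested, and both comparisons share the 2xX2x arrays. No group held enough arrays for a check of single outlying arrays.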

How the results depend on the processing

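Of 126 recomputed values, 93 stayed within the limits set for a change. No median among them changed sign. The rest were counts, which have no sign to change. The number of members was 96 with a floor of 40, 79 with ratios from 2 to under 4, and 162 to 232 without 1 of the 7 other arrays of the choice.

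Called higher in fis1X2x were 7 members with no filter, 10 with a filter at the 60th percentile, 10 under the floor of 40 and 0 to 16 without 1 array; called lower were 1 with no filter, 8 with 12 arrays, 2 under the floor of 40 and 0 to 4 without 1 array. Of all probe sets tested, 0.176% were called higher and 0.123% lower with no filter, 0.557% and 0.495% with the 60th percentile, and none without a fis1X2x array. Leaving out either 2xX2x array leaves 1 array in that group. A larger share of all probe sets was then called higher, and a smaller share lower, than with no array left out. The member counts of those settings therefore cannot be read against the shares of the main fit. Of the 11 named genes called, 3 were called with no filter, 11 with 12 arrays and 8 after quantile normalization. With the replicate number as a block, 2 were called higher and 0 lower, against 22 and 10 of all probe sets; the replicate differences of the groups correlated at -0.265 over 14244 probe sets, so the numbers were not taken to pair samples. Crossed pairing, added after seeing the data, called 30 higher and 13 lower, against 248 and 250 of all probe sets.

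Both fis1X2x arrays were above 2xX2x for 40 and below for 17 of the 96 members under the floor of 40. With ratios from 2 they were above for 38 and below for 15 of 79 members. Under a floor of 1 they were above for 95 and below for 52 of 219 members. Without 1 array, 72 to 98 of the 158 were above and 40 to 58 below, with medians of 0.14 to 0.71. These counts can only stay level or rise when an array is left out, and the shares of all probe sets were not computed for those settings. For msi1 the counts were 4 above and 33 below of the 79 members with ratios from 2. With either 2xX2x array left out, 12 of the 158 were above. The msi1 median was -0.83 with median centring, -0.60 with signals raised to 20, -1.10 under the floor of 40, -0.47 under a floor of 1, -1.05 with ratios from 2, -0.75 without 6xX2x replicate 1 in the rule, and -0.82 to -0.88 without 1 of the 2xX2x arrays.

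Signals near the floor limit what the 62 members under 20 in msi1 can show. Motif counts in promoters were not run.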
